A study of Mus musculus with 13 samples.

Results

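The small leucine-rich proteoglycans are a family of secreted matrix proteins, and 10 of their genes were followed here across muscle FAPs, lung FAPs and MEFs: Dcn, Bgn, Aspn, Lum, Fmod, Prelp, Omd, Kera, Ogn and Podn. All 10 belong to the family, but 8 relatives found in the table were kept outside this list. The list was made with earlier results of these data known. All 10 were found among the 23418 genes of the table and among the 15412 genes with enough reads to be tested. The groups were FAPs of mouse skeletal muscle (replicates 2 to 5, n = 4), FAPs of mouse lung (n = 5, replicates 1 to 5) and MEFs (replicates 1 to 4, n = 4). FAP commonly stands for fibro/adipogenic progenitor, a mesenchymal cell that lies between muscle fibres, and MEF for mouse embryonic fibroblast, but the labels print the abbreviations only. No source used here gives the strain, genotype, age, sex, culture or the sort that yielded the FAPs. No group carries a treatment in its labels. The study set out to find signals from the surroundings of satellite cells, the stem cells of muscle.

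Proteins of this family have a core of leucine-rich repeats that lies against collagen fibrils, and most carry side chains of chondroitin, dermatan or keratan sulfate. They set the spacing and thickness of collagen fibrils, and several also hold growth factors such as TGF-beta in the matrix. Class I (Dcn, Bgn, Aspn) carries chondroitin or dermatan sulfate or, in asporin, no such chain, class II (Lum, Fmod, Prelp, Omd, Kera) includes the carriers of keratan sulfate, osteoglycin (Ogn) is of class III and podocan (Podn) of class V.

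Decorin dominated the family in both kinds of FAP and biglycan in MEFs. Reads of the 10 genes made up 2.35% ± 0.129 (SD, n = 4) of all reads in muscle FAPs and 2.23% ± 0.296 (n = 5) in lung FAPs, and MEFs had 0.258% ± 0.00642 (n = 4). All 10 genes were higher in muscle FAPs than in MEFs, as were 36.1% of all genes tested, and 9 were higher in lung FAPs than in MEFs, as were 37.8% of all genes tested. Between both kinds of FAP, 6 were higher in muscle (23.2% of all genes tested), with nearly all reads of Kera there, 0 were lower (25.0% of all genes tested), and 4 did not pass the test.

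Of these genes, 8 lie in 3 groups on chromosomes 10, 13 and 1 (GENCODE annotation, GRCm38, the assembly also called mm10), so neighbours can be compared. On chromosome 10, Dcn (chr10:97479609-97518143), Lum (chr10:97565128-97572703) and Kera (chr10:97606879-97613692) follow each other on the plus strand, with the related gene Epyc after them, over 203 kb. On chromosome 13, Aspn (chr13:49544443-49567565), Omd (chr13:49582462-49592822) and Ogn (chr13:49608046-49624501) follow Ecm2 on the plus strand over 120 kb, inside Cenpp on the other strand. The exons of Cenpp share 0 bases with Ogn, 0 with Omd and 7 with Aspn. On chromosome 1, Prelp (chr1:133910304-133921414, minus strand) and Fmod (chr1:134037254-134048277, plus strand) share a stretch of 151 kb with Optc. Prelp shares 350 of its 3615 exon bases with the antisense gene Gm15851, which is not among the genes of the table. Without a stated strand for the counting, reads in that shared stretch cannot be told from those of Gm15851. Bgn (chrX:73483602-73495933) and Podn (chr4:108014791-108096445) lie outside these groups. Podn overlaps Scp2 and Gm23354 on the same strand and Mir6397 on the other, with 0 shared exon bases for each.

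RefSeq windows (GRCm38.p6) were matched by symbol for 8 of the 10 genes, with 2 start sites for Podn, and the 250 bases before each start were searched on both strands, while Dcn and Lum were not matched. The 4 printed here, of these 8, are Bgn, the gene that stayed high in MEFs, Fmod, the well-measured gene with the largest difference between both kinds of FAP, and the neighbours Ogn and Aspn, of which Aspn passed the test between both kinds of FAP and Ogn did not. Each is printed 5′ to 3′ on the strand of its gene, and capitals mark matches to the TATA box, the CCAAT box or the GC box.
Bgn chrX:73483351-73483600: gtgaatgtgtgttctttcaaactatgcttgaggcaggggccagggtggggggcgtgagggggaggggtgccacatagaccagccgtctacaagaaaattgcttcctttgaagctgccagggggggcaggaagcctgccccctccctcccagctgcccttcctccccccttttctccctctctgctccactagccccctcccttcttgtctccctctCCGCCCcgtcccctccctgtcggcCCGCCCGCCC
Fmod chr1:134037004-134037253: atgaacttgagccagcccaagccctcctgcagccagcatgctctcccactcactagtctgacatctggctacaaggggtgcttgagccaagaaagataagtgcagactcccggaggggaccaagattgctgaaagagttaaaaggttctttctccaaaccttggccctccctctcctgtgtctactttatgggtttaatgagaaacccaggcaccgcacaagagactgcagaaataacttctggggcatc
Ogn chr13:49607765-49608014: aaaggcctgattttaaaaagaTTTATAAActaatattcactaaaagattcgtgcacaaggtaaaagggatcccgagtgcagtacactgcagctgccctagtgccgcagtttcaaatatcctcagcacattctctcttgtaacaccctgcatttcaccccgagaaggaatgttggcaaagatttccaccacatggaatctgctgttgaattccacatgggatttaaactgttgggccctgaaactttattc
Aspn chr13:49544193-49544442: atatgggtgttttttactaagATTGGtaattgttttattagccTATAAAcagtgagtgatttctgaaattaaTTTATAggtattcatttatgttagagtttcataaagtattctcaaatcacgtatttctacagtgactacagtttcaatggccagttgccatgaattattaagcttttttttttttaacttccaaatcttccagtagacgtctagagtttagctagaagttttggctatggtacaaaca

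Bgn had the GC-rich window of these 4, at 64.4% G and C, against 51.2% for Fmod, 42% for Ogn and 30% for Aspn and a median of 52.4% over 32851 windows of the same length. Its 3 GC boxes (GGGCGG, in 32.7% of all windows) began 34, 10 and 6 bases before the start, and the last pair overlap. Podn, a gene near the bottom in MEFs, also had a GC-rich window, at 78% with 2 GC boxes. Its start lies inside the GENCODE span of Podn. A link between such a window and the level of a gene was not tested. The TATA box (TATAAA, 12.4% of windows) was found in 2 of the 9 windows, those of Ogn and Aspn, at 178 to 229 bases before the start. The CCAAT box (CCAAT, 33.8% of windows) was found in 3 of 9, with 3 matches in the window of Kera and 1 each in those of Prelp and Aspn. The window of Kera and both windows of Podn lie inside the GENCODE spans of these genes, so they do not precede the first annotated base. The E-box (CANNTG, 66.2% of windows) was found in 6 of 9 windows, the CAGAC element (CAGAC, 42.2%) in those of Fmod and Prelp, and the AP-1 site (TGANTCA, 6.75%) and the CArG box (1.47%) in 0 of 9. A match is a match of letters in this window only.

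Reads on genes numbered 41327292 to 44699463 per muscle library, 28636183 to 35464622 per lung library and 33756915 to 41466585 per MEF library. Levels are CPM, the counts scaled to a common total after edgeR's TMM factors adjusted each library. These factors ran from 0.777 to 0.809 for muscle, 0.985 to 1.16 for lung and 1.15 to 1.22 for MEF libraries. The FAP markers Pdgfra, Ly6a and Cd34 summed to 3613 to 3913 CPM in muscle, 2590 to 4065 in lung and 113 to 159 in MEF libraries. Lung FAP 3 held 8421 CPM of lung epithelium markers, against 15.2 to 91.5 in the other lung FAPs, and lung FAP 2 held the most reads of endothelial markers (620 CPM) and of the pericyte and smooth muscle list (1086 CPM). Markers of tendon cells summed to 1020 to 1771 CPM in muscle, 9.73 to 61.8 in lung and 42.2 to 43.9 in MEF libraries, with 0 of the 6 genes at 0 in any group. Most of the muscle sum was Thbs4, at a mean of 1188 CPM in muscle FAPs. Of the 6, 6 were higher in muscle than in lung FAPs, but against MEFs 4 were higher and 2 lower in muscle FAPs, the latter being the tendon regulators Scx (0.729 against 6.51 CPM, −3.15 on the log2 scale, edgeR adjusted p = 0.000311) and Mkx (2.93 against 8.51 CPM, −1.54, edgeR adjusted p = 0.00616). Markers of mesothelium, the cell layer that lines the lung and body cavities, summed to 361 to 856 CPM in lung, 1.15 to 27.0 in muscle and 102 to 135 in MEF libraries, and 5 of 5 were lower in muscle than in lung FAPs (median −5.94 on the log2 scale). None of the 5 was at 0 in any group, and their part in the differences between muscle and lung FAPs was not tested. The labels do not say whether replicates are separate animals or cultures, so p-values measure the spread between these libraries, which may be technical. In bulk libraries, fewer cells of a type and less RNA per cell cannot be told apart.

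Decorin, which binds collagen fibrils and TGF-beta and limits fibril thickness, was among the most abundant transcripts of both kinds of FAP. Its level was 18774, 19983, 22094 and 22288 CPM in muscle FAPs 2 to 5 and 14264, 10411, 12729, 19220 and 12960 CPM in lung FAPs 1 to 5. MEFs 1 to 4 had 81.5, 71.1, 51.7 and 91.3 CPM. Muscle and lung libraries overlapped, since lung FAP 4 lay above muscle FAP 2, and all 9 FAP libraries lay above all MEFs. Among all genes decorin ranked 3 to 4 in muscle, 2 to 4 in lung and 2009 to 3597 in MEF libraries. Muscle FAPs exceeded lung FAPs 1.49-fold (0.58 ± 0.16 SE on the log2 scale, edgeR adjusted p = 0.0239). Muscle FAPs exceeded MEFs 281-fold (8.14 ± 0.19, edgeR adjusted p = 2.21e-12). Lung FAPs exceeded MEFs 188-fold (7.56 ± 0.23, edgeR adjusted p = 3.11e-12). The difference between muscle and lung no longer passed without muscle FAP 4 (edgeR adjusted p = 0.0603), without muscle FAP 5 (edgeR adjusted p = 0.0528) or without lung FAP 3 (edgeR adjusted p = 0.0536). Without lung FAPs 2 and 3 it was 0.42 on the log2 scale (edgeR adjusted p = 0.124), and with library totals alone as the scale it was 0.18 (edgeR adjusted p = 0.428).

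Biglycan, the nearest relative of decorin and also a free ligand of Toll-like receptors, was the only member followed here that stayed high in MEFs. Muscle FAPs 2 to 5 held 3492, 3654, 2818 and 3415 CPM, lung FAPs 1 to 5 held 4305, 3582, 4154, 2961 and 3615 CPM, and MEFs 1 to 4 held 1888, 2101, 2077 and 2007 CPM. Muscle and lung libraries overlapped, and all FAP libraries lay above all MEFs. Its rank among all genes was 32 to 52 in muscle, 10 to 18 in lung and 21 to 28 in MEF libraries. Between muscle and lung FAPs the log2 fold change was −0.15 ± 0.13 SE (edgeR adjusted p = 0.368). Biglycan exceeded the MEFs 1.66-fold in muscle FAPs (0.73 ± 0.09 on the log2 scale, edgeR adjusted p = 0.000292) and 1.84-fold in lung FAPs (0.88 ± 0.10, edgeR adjusted p = 3.13e-05). With library totals alone as the scale, the difference between muscle FAPs and MEFs was 0.15 (edgeR adjusted p = 0.306). On that scale biglycan was lower in muscle than in lung FAPs (−0.56, edgeR adjusted p = 0.00172).

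The exchange of the leading gene was seen within each library, where scaling plays no part. Of the reads of the 10 genes, decorin gave 70.0% ± 2.25 (SD, n = 4) in muscle and 64.8% ± 5.16 (n = 5) in lung FAPs, but 3.40% ± 0.811 (n = 4) in MEFs. Biglycan gave 11.3% ± 1.59 in muscle FAPs and 17.9% ± 3.87 in lung FAPs, but 92.7% ± 1.83 in MEFs. The log2 ratio of biglycan to decorin reads was lower in muscle FAPs than in MEFs (difference of means −7.44, exact permutation test, 2-sided, adjusted p = 0.0396) and lower in lung FAPs than in MEFs (−6.69, exact permutation test, adjusted p = 0.0317). These p-values were adjusted over 18 tests on 6 ratios, and the smallest unadjusted p these group sizes allow is 0.0159 for 4 against 5 libraries and 0.0286 for 4 against 4. Between muscle and lung FAPs the difference was −0.75 (exact permutation test, adjusted p = 0.0571), with overlap, and it passed without lung FAP 4 (−0.96, exact permutation test, adjusted p = 0.0367). Without decorin and biglycan, the other 8 genes summed to 5525 ± 109 CPM in muscle and 3645 ± 381 CPM in lung FAPs, against 85.0 ± 21.4 CPM in MEFs.

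**Figure D1:**
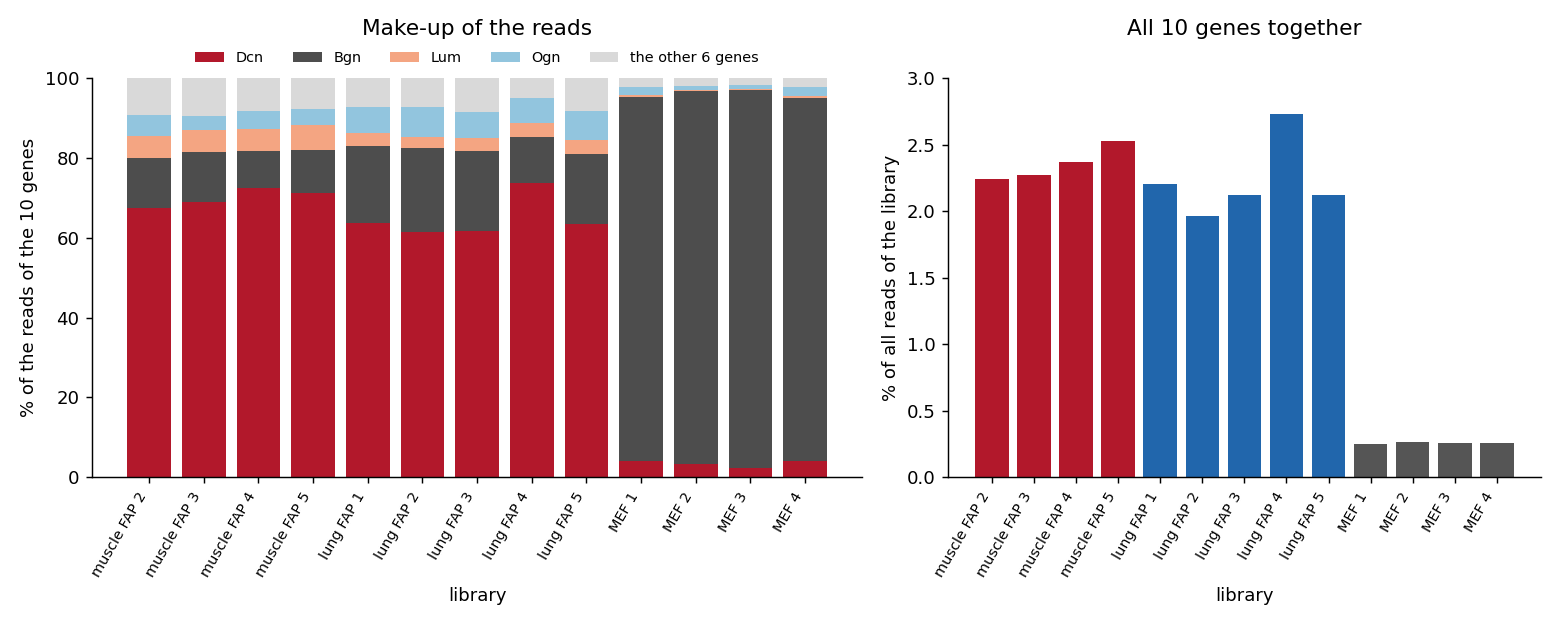
Left, the make-up of the reads of the 10 genes in each library, as stacked bars in % of those reads; right, these reads as % of all reads of the library, coloured by group (muscle FAP red, lung FAP blue, MEF grey). Decorin takes 70.0% on average in muscle FAPs and 3.40% in MEFs, where biglycan takes 92.7%.

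Asporin, the third class I gene, binds collagen and TGF-beta and carries a stretch of aspartates in place of the usual sugar chain. It stood at 664, 793, 634 and 675 CPM in muscle FAPs 2 to 5 and at 368, 241, 543, 536 and 430 CPM in lung FAPs 1 to 5. MEFs 1 to 4 had 30.2, 19.9, 15.9 and 35.6 CPM. The 3 groups did not overlap. Asporin was 1.63-fold higher in muscle than in lung FAPs (0.71 ± 0.23 SE on the log2 scale, edgeR adjusted p = 0.0269). That call was lost without muscle FAP 3 (edgeR adjusted p = 0.0774), without lung FAP 1 (edgeR adjusted p = 0.0563) or with library totals alone (0.31, edgeR adjusted p = 0.274). It exceeded the MEFs 27.2-fold in muscle FAPs and 16.7-fold in lung FAPs (edgeR adjusted p = 2.63e-09 and 8.39e-09).

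Lumican and fibromodulin, a pair of class II genes that guide successive steps of collagen fibril assembly, rose most clearly in muscle among the abundant members. Lumican stood at 1528, 1589, 1682 and 1916 CPM in muscle FAPs 2 to 5, at 745, 463, 645, 960 and 694 CPM in lung FAPs 1 to 5, and at 11.8, 7.38, 5.06 and 12.6 CPM in MEFs 1 to 4. Fibromodulin, in the same order of libraries, stood at 347, 526, 349 and 387 CPM in muscle, 155, 104, 118, 74.6 and 124 CPM in lung and 8.26, 11.9, 10.3 and 5.63 CPM in MEF libraries. For both genes every muscle library lay above every lung library and every lung library above every MEF. Lumican was 2.39-fold higher in muscle than in lung FAPs (1.26 ± 0.18 SE on the log2 scale, edgeR adjusted p = 0.000509). Fibromodulin was 3.50-fold higher (1.81 ± 0.22, edgeR adjusted p = 1.35e-05). Both calls held when each library was left out in turn and under each scaling, but lumican did not pass a test against a 2-fold change, which fibromodulin passed. Lumican exceeded the MEFs 182-fold in muscle and 76.2-fold in lung FAPs (edgeR adjusted p = 3.82e-11 and 1.28e-10). Fibromodulin exceeded them 44.5-fold and 12.7-fold (edgeR adjusted p = 2.84e-10 and 7.18e-09). Muscle FAP 3, the library with the highest fibromodulin level, also had the highest sum of tendon cell markers (1771 CPM), whose part in the difference was not tested.

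Prolargin (Prelp) and osteomodulin (Omd) are class II proteins as well, the first known for a heparin-binding end that ties basement membranes to collagen and the second for its place in bone and dentin. Prolargin stood at 992, 889, 971 and 874 CPM in muscle FAPs 2 to 5, at 636, 556, 659, 347 and 724 CPM in lung FAPs 1 to 5, and at 3.44, 5.56, 5.81 and 2.62 CPM in MEFs 1 to 4, with no overlap between groups. It was 1.59-fold higher in muscle than in lung FAPs (0.67 ± 0.19 SE on the log2 scale, edgeR adjusted p = 0.0214). That call was lost without muscle FAP 2 (edgeR adjusted p = 0.0516), without muscle FAP 4 (edgeR adjusted p = 0.0524) or with library totals alone (0.27, edgeR adjusted p = 0.296). Osteomodulin was a minor member in every group, at 42.9 to 67.4 CPM in muscle, 41.7 to 59.5 CPM in lung and 1.64 to 2.29 CPM in MEF libraries. Its libraries of muscle and lung overlapped (0.18 ± 0.19 SE on the log2 scale, edgeR adjusted p = 0.341), and with library totals alone the sign turned (−0.22, edgeR adjusted p = 0.221). Prolargin exceeded the MEFs 214-fold in muscle and 134-fold in lung FAPs (edgeR adjusted p = 1.64e-11 and 2.72e-11). Osteomodulin exceeded them 27.7-fold and 24.4-fold (edgeR adjusted p = 1.04e-11 and 1.13e-11).

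Keratocan (Kera), best known from the transparent stroma of the cornea, was the member that set the muscle libraries apart from all others. Its reads numbered 1159, 1052, 859 and 591 in muscle FAPs 2 to 5, or 33.7, 31.1, 24.7 and 17.7 CPM. Lung FAP 1 had 22 reads (0.63 CPM), lung FAP 2 had 1 read, and lung FAPs 3, 4 and 5 had 0, while MEF 4 had 2 reads and the other MEFs 0. All muscle libraries lay far above all others, and lung and MEF libraries overlapped at 0. The ratio of summed reads of muscle to lung FAPs, per read of depth, was 195 (exact 95% interval 130 to 308, for counting error only), and 3544 (636 to 140007) without lung FAP 1, which rests on 1 read. The fitted log2 fold change was 7.59 (edgeR adjusted p = 5.19e-06), and 11.26 without lung FAP 1. Its SE of 0.74 comes from log2 CPM at prior count 2, which draws libraries near 0 reads together. That SE is therefore no error of the fitted value. Against MEFs the ratio was 2434 (673 to 20103), on 2 reads in MEFs (edgeR adjusted p = 9.10e-07). Lung FAPs against MEFs did not pass (edgeR adjusted p = 0.0743), passed without lung FAP 3 (edgeR adjusted p = 0.0429) or lung FAP 5 (edgeR adjusted p = 0.0478), and the sign of that difference turned without lung FAP 1 (−0.39 on the log2 scale, edgeR adjusted p = 0.793). Within the muscle FAPs, keratocan did not follow the order of the tendon markers, whose sums were 1227, 1771, 1020 and 1495 CPM in muscle FAPs 2 to 5, and the part of tendon cells in the keratocan reads was not tested.

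Osteoglycin, also called mimecan, and podocan differed least between muscle and lung beside biglycan and osteomodulin. Osteoglycin stood at 1498, 1067, 1405 and 1269 CPM in muscle FAPs 2 to 5, at 1437, 1300, 1354, 1600 and 1482 CPM in lung FAPs 1 to 5, and at 37.0, 23.3, 19.2 and 48.0 CPM in MEFs 1 to 4. Its muscle and lung libraries overlapped (−0.13 ± 0.12 SE on the log2 scale, edgeR adjusted p = 0.642), and with library totals alone it was lower in muscle (−0.53, edgeR adjusted p = 0.0462). Podocan, described as a brake on smooth muscle growth, stood at 383 to 461 CPM in muscle, 262 to 410 CPM in lung and 2.59 to 3.40 CPM in MEF libraries. Podocan lay close to the threshold between both kinds of FAP (0.35 ± 0.15, edgeR adjusted p = 0.0537). It passed under DESeq2 and limma-voom, and with edgeR when muscle FAP 5 or lung FAP 1, 3 or 5 was left out (edgeR adjusted p = 0.0237 to 0.0488). It turned to −0.05 (edgeR adjusted p = 0.755) with library totals alone. Osteoglycin exceeded the MEFs by 5.36 on the log2 scale in muscle FAPs and by 5.49 in lung FAPs (edgeR adjusted p = 1.23e-10 and 8.07e-11). Podocan exceeded them 137-fold and 108-fold (edgeR adjusted p = 3.16e-13 and 3.30e-13).

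**Figure D2:**
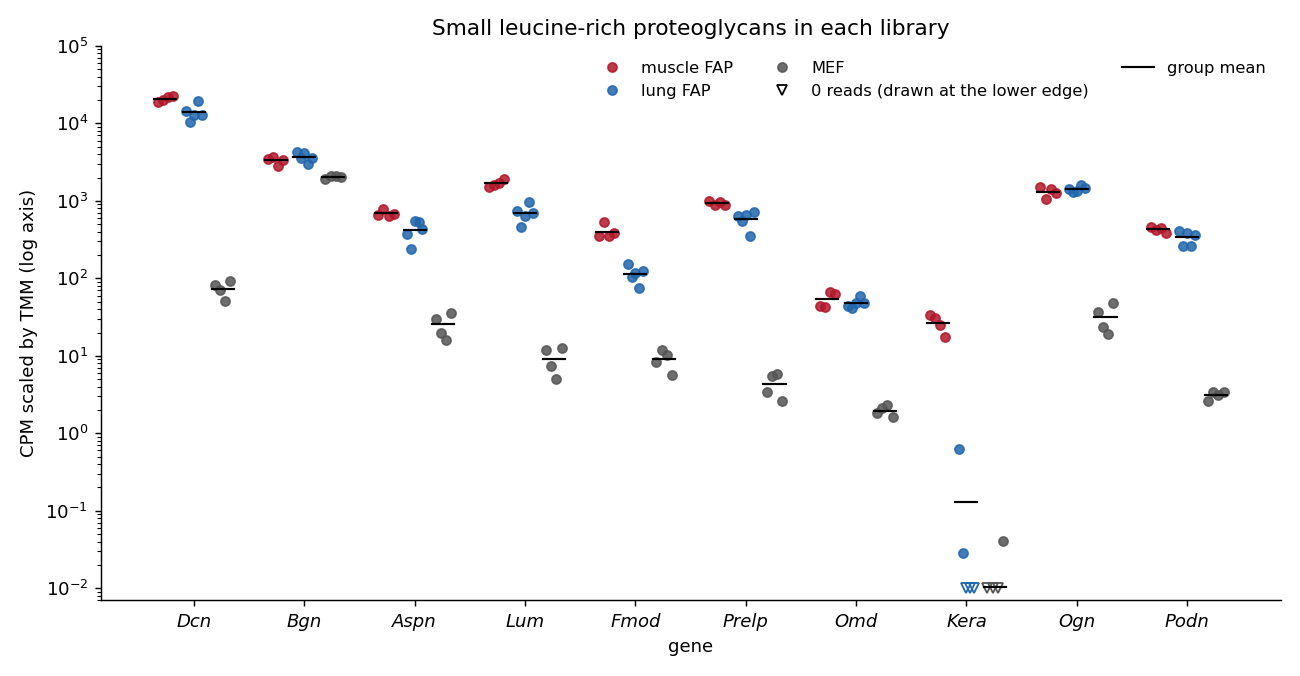
Level of each of the 10 genes in each library, in CPM scaled by TMM on a log axis; points are libraries, bars are group means, and triangles at the lower edge are libraries with 0 reads. All genes but Kera have every FAP library above every MEF, and Kera is at 17.7 to 33.7 CPM in muscle FAPs and at 0 in 3 of 5 lung FAPs.

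Set against all genes, 6 of 10 members were higher in muscle than in lung FAPs, where 23.2% of the genes tested were higher, and 0 were lower, where 25.0% were lower. Groups did not overlap for 5 members (Aspn, Fmod, Kera, Lum and Prelp), against 37.9% of all genes. The members' median log2 fold change was 0.63, with −0.04 over all genes. The count of 6 fell to 5 without lung FAPs 2 and 3. It ran from 4 to 7 when single libraries were left out, with 4 without muscle FAP 4. With library totals alone as the scale, the median of all genes moved to −0.44, and all genes split into 1730 higher and 7448 lower in place of 3574 and 3850. The members then split into 3 higher (Fmod, Kera and Lum) and 2 lower (Bgn and Ogn). Muscle FAPs against MEFs gave 10 of 10 members higher, with 36.1% of all genes higher, and 10 members without overlap, against 73.9% of all genes. The median was 6.29 over the members and −0.04 over all genes. With library totals alone, the median of all genes was −0.62, all genes split into 3757 higher and 8089 lower in place of 5570 and 5756, and 9 members were higher. Lung FAPs against MEFs gave 9 of 10 higher, with 37.8% of all genes higher, and 9 without overlap, against 65.3% of all genes, at a median of 5.05 over the members and 0.02 over all genes. The last 2 comparisons share the MEF libraries, so the count of one is no second support for the other.

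**Figure D3:**
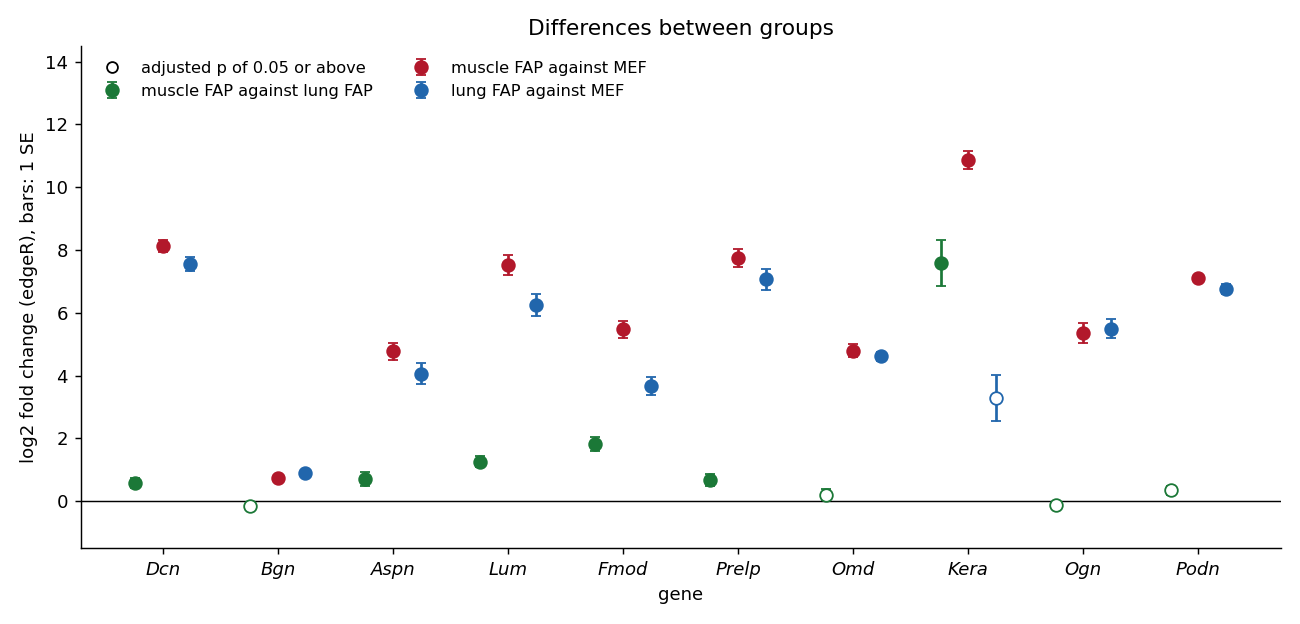
Fitted log2 fold change of each gene in the 3 comparisons (vertical axis), with bars of 1 SE; open circles mark edgeR adjusted p-values of 0.05 or above. The values against MEFs lie at 3.67 or above for 8 of the 10 genes in both comparisons, Bgn lies at 0.73 and 0.88, and Kera is open for lung FAP against MEF.

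Levels of different genes were ranked as CPM per kb of exon. In muscle FAPs the order was Dcn, Bgn, Lum, Ogn, Aspn, Prelp, Podn, Fmod, Omd and Kera, from 10719 ± 876 CPM per kb for Dcn and 1383 ± 151 for Bgn down to 11.8 ± 3.14 for Kera (SD, n = 4). Aspn and Prelp, and Podn and Fmod, overlapped there with their neighbour in the order. In lung FAPs the order was Dcn, Bgn, Ogn, Lum, Aspn, Prelp, Podn, Fmod, Omd and Kera, from 7177 ± 1688 CPM per kb for Dcn to 0.0578 ± 0.122 for Kera (n = 5). Lum and Aspn, Aspn and Prelp, Prelp and Podn, and Fmod and Omd overlapped. MEFs began with Bgn at 834 ± 39.5 CPM per kb, followed by Dcn at 38.1 ± 8.73 and Ogn at 12.4 ± 5.15 (n = 4), then Aspn, Lum, Fmod, Prelp, Podn, Omd and Kera. Ogn and Aspn, Lum and Fmod, Prelp and Podn, and Podn and Omd overlapped in MEFs. Exon lengths bear on this order: with every annotated exon in place of the basic set, Lum came before Bgn and Fmod before Podn in muscle FAPs, and Omd before Podn in MEFs.

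Ratios within a library showed that members of the same chromosome group did not all keep a constant proportion. The log2 ratio of lumican to decorin reads was −3.63 ± 0.07 (SD) in muscle, −4.32 ± 0.10 in lung and −3.07 ± 0.28 in MEF libraries, with no overlap between any pair of groups. Relative to decorin, lumican stood 0.69 higher in muscle than in lung FAPs (exact permutation test, adjusted p = 0.0317). Both kinds of FAP lay below the MEFs in this ratio, with differences of −0.57 for muscle (exact permutation test, adjusted p = 0.0396) and −1.25 for lung (exact permutation test, adjusted p = 0.0317). The ratio of asporin to osteoglycin, on chromosome 13, was 0.90 higher in muscle than in lung FAPs (exact permutation test, adjusted p = 0.0317) and lower in lung FAPs than in MEFs (−1.51, exact permutation test, adjusted p = 0.0317). Muscle FAPs and MEFs overlapped in that ratio (−0.61, exact permutation test, adjusted p = 0.0643). The ratio of osteomodulin to osteoglycin differed by 0.30 between muscle and lung FAPs, by −0.67 between muscle FAPs and MEFs and by −0.98 between lung FAPs and MEFs, none of which passed (exact permutation test, adjusted p = 0.134, 0.229 and 0.0571). Fibromodulin against prolargin stood at −1.23 ± 0.35 in muscle, −2.34 ± 0.21 in lung and 1.07 ± 0.18 in MEF libraries. Fibromodulin reads outnumbered prolargin reads in MEFs alone. Its differences were 1.11 for muscle against lung FAPs (exact permutation test, adjusted p = 0.0317), −2.30 for muscle FAPs against MEFs (exact permutation test, adjusted p = 0.0396) and −3.41 for lung FAPs against MEFs (exact permutation test, adjusted p = 0.0317). Keratocan against lumican was 8.05 higher in muscle than in lung FAPs (exact permutation test, adjusted p = 0.0317), a size that depends on the 0.5 reads added to each count, and with keratocan at 0 reads in most other libraries its comparisons with MEFs are not read here.

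**Figure D4:**
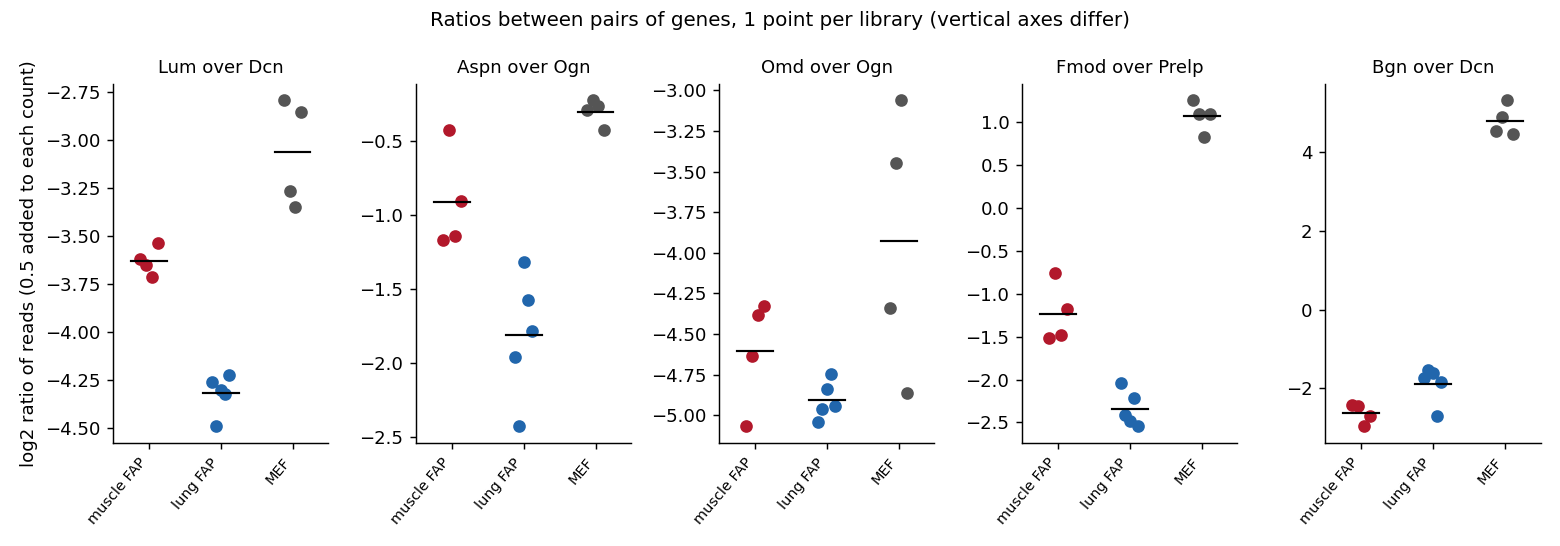
The log2 ratio of the reads of 5 pairs of genes in each library (points) with group means (bars), by group; vertical axes differ between panels. Lum over Dcn and Fmod over Prelp lie in 3 separate ranges, with means of −3.63, −4.32 and −3.07 and of −1.23, −2.34 and 1.07 for muscle FAP, lung FAP and MEF.

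The genes beside the members on these chromosomes did not all share their pattern. Ecm2, a relative next to Aspn, stood at 514 CPM in muscle and 412 CPM in lung FAPs, against 0.608 CPM in MEFs. Epyc, next to Kera, went the other way between both kinds of FAP, at 0.937 CPM in muscle and 8.65 CPM in lung (−3.20 ± 0.48 SE on the log2 scale, edgeR adjusted p = 0.000129), and stood at 0.336 CPM in MEFs. Optc, near Prelp, was at 1.99 CPM in muscle, 1.62 CPM in lung and 0.823 CPM in MEF libraries.

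The 5 lung FAP libraries did not deviate from their mean in the same way for all members. Lung FAP 2 was the lowest of the 5 for 6 members (Dcn, Lum, Ogn, Aspn, Podn and Omd). The most reads of endothelial and pericyte lists lay in it too, as did the lowest sum of FAP markers (2590 CPM). The part of other cells in these levels was not tested. Lung FAP 4 was the highest for Dcn, Lum, Ogn and Omd and the lowest for Bgn, Fmod and Prelp, and it held the highest sum of FAP markers (4065 CPM). MEF 4 likewise was the highest MEF for 6 members (Dcn, Lum, Ogn, Aspn, Podn and Kera) and the lowest for Fmod, Prelp and Omd.

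**Figure D5:**
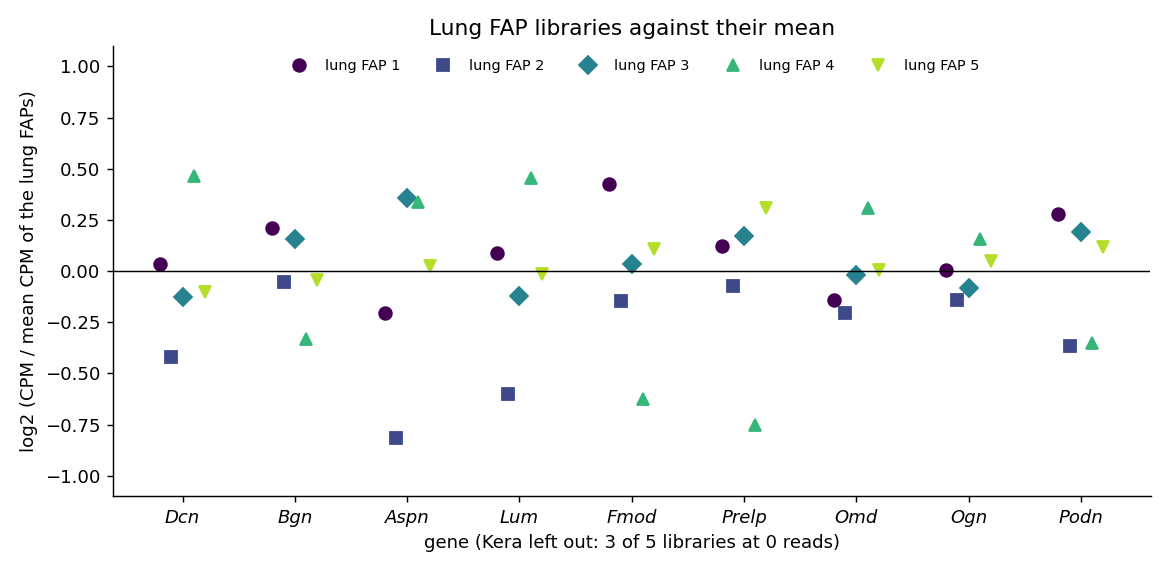
Level of 9 genes in each lung FAP library relative to the mean of the 5 lung FAPs, as a log2 ratio; each symbol is a library. Lung FAP 4 lies at the top for Dcn, Lum, Ogn and Omd and at the bottom for Bgn, Fmod and Prelp, and lung FAP 2 at the bottom for Dcn, Lum, Ogn, Aspn, Podn and Omd.

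Likeness over the 13 libraries, as Pearson's r of log2 CPM, is given as a description, since libraries of a group share their source. The nearest genes of all were Ifi205 (r = 0.999) and Dpep1 for Dcn, Map3k14 (0.974) and Pnmal2 for Bgn, Lum (0.994) and Mnda for Aspn, AI607873 (0.997) and Medag for Lum, and Coro2b (0.993) and Fndc4 for Fmod. For the others they were H6pd (0.998) and Hr for Prelp, Cd302 (0.997) and 1700019D03Rik for Omd, Kat2b (0.999) and Shisa3 for Ogn, Plxdc2 (0.998) and Best1 for Podn, and Ptx4 (0.989) and Lrig1 for Kera. The members nearest to each other were Prelp and Podn (0.995), Dcn and Podn (0.995), and Aspn and Lum (0.994). Kera stood apart, with Fmod as its nearest member at 0.751 and 1241 genes at least as near as that, and Bgn had 365 genes at least as near as its nearest member, Podn (0.923).

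Other genes of the pathway were counted from lists of relatives, modifying enzymes and partners. The shares of all genes tested to set beside these counts are 23.2% higher and 25.0% lower for muscle against lung FAPs, 36.1% higher and 37.3% lower for muscle FAPs against MEFs, and 37.8% higher and 36.6% lower for lung FAPs against MEFs. These lists were not tested as sets, and nothing is called particular to any of them. Of 7 other genes of the family that were tested, 2 were higher in muscle than in lung FAPs, 2 lower and 3 did not pass, or, with library totals alone, 1 higher and 2 lower. Chad, a cartilage matrix protein, led them at 38.1 CPM in muscle and 1.39 CPM in lung libraries (4.77 ± 0.81 SE on the log2 scale, edgeR adjusted p = 0.000535). Tsku, a secreted relative that was named after its values were seen, was lower in muscle than in lung FAPs (31.7 against 65.8 CPM, −1.05, edgeR adjusted p = 4.76e-05) and lower in muscle FAPs than in MEFs (65.4 CPM, −1.05, edgeR adjusted p = 2.42e-05). Against MEFs, 4 of 7 were higher and 2 lower in muscle FAPs, or 3 and 2 with library totals alone, and 4 were higher and 1 lower in lung FAPs, with Ecm2 at 9.72 and 9.40 on the log2 scale (edgeR adjusted p = 1.05e-14 and 1.12e-14).

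Enzymes that build the sugar chains came next. Of 6 enzymes of the linkage region, 1 was higher in muscle than in lung FAPs (Xylt1, which starts the chain, 1.39 on the log2 scale, edgeR adjusted p = 1.65e-05) and 1 lower (B3gat3, −0.42, edgeR adjusted p = 0.0209). With library totals alone 4 were lower. B4galt7, the next enzyme of that region after Xylt1, was lower than in MEFs in both kinds of FAP (−2.18 in muscle and −2.42 in lung, edgeR adjusted p = 3.38e-10 and 4.46e-11), where 2 of 6 were higher and 3 lower in muscle FAPs, and 2 higher and 2 lower in lung FAPs. Of 15 genes of chondroitin and dermatan sulfate synthesis, 7 were higher in muscle than in lung FAPs and 3 lower, with Chsy3 at 2.24 and Chst3 at −3.15 on the log2 scale (edgeR adjusted p = 5.98e-07 and 1.91e-05), or, with library totals alone, 5 higher and 3 lower. Against MEFs, 8 of 15 were higher and 3 lower in muscle FAPs, or 6 and 6 with library totals alone, led by Csgalnact1 (2.87, edgeR adjusted p = 1.09e-10), and 7 were higher and 5 lower in lung FAPs, led by Chst3 (4.61, edgeR adjusted p = 1.93e-07). Of 5 genes of keratan sulfate synthesis, 0 were higher in muscle than in lung FAPs and 3 lower. Among these 3 were Chst1 (−1.27) and B4galt4 (−0.80, edgeR adjusted p = 0.000731 and 0.000767). Against MEFs 3 of 5 were higher and 1 lower in muscle FAPs, and 4 were higher and 0 lower in lung FAPs, with B3gnt2, which extends the chain, at 2.27 and 2.14 (edgeR adjusted p = 1.99e-09 and 2.58e-09).

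Partners of the proteins in the matrix were collagens and proteases. Of 12 collagens that these proteins bind, 11 were higher in muscle than in lung FAPs and 1, Col14a1, lower, at a median log2 fold change of 1.62 (−0.04 over all genes), or, with library totals alone, 10 higher and 1 lower. Col5a3 (2660 against 113 CPM, 4.55 on the log2 scale, edgeR adjusted p = 7.86e-08) and Col6a3 (4229 against 533 CPM, 2.99, edgeR adjusted p = 7.58e-07) differed most. Against MEFs, 10 of 12 were higher and 2 lower in muscle FAPs, and 8 were higher and 3 lower in lung FAPs, with Col14a1 at 7.34 in muscle FAPs (edgeR adjusted p = 5.32e-13) and Col2a1, the collagen of cartilage, at −8.93 in lung FAPs (edgeR adjusted p = 1.10e-08). Of 12 proteases and their enhancers that mature or cut these proteins, 8 were higher in muscle than in lung FAPs and 2 lower, the latter being Mmp3 (−2.17, edgeR adjusted p = 4.34e-06) and Pcolce2, an enhancer of procollagen cutting (−1.90, edgeR adjusted p = 1.35e-07). The counts were 6 higher and 3 lower with library totals alone. Against MEFs, 9 of 12 were higher and 1 lower in muscle FAPs, and 9 were higher and 2 lower in lung FAPs, with Adamts4 at 6.52 in muscle FAPs and Pcolce2 at 6.42 in lung FAPs (edgeR adjusted p = 5.07e-12 and 4.35e-13).

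Of 10 receptors described for these proteins, 4 were higher in muscle than in lung FAPs and 2 lower, or, with library totals alone, 3 higher and 4 lower. Egfr, which decorin binds, rose most (903 against 236 CPM, 1.94 on the log2 scale, edgeR adjusted p = 2.55e-08), followed by Tlr4, which biglycan binds (120 against 43.1 CPM, 1.47, edgeR adjusted p = 6.58e-08). Tlr2, the other such receptor of biglycan, stood above MEFs in both kinds of FAP (4.70 and 4.12, edgeR adjusted p = 3.46e-09 and 8.69e-09), where 5 of 10 were higher and 4 lower in muscle FAPs, and 4 were higher and 1 lower in lung FAPs. Of 8 growth factors that these proteins hold, 5 were higher in muscle than in lung FAPs and 2 lower. With library totals alone, 4 were higher and 2 lower. Bmp2 stood at 3.05 (edgeR adjusted p = 2.08e-07) and Pdgfb, at 0.133 against 6.25 CPM, at −5.53 (edgeR adjusted p = 0.00222). Pdgfb ranged from 0.200 to 22.0 CPM over the lung libraries and from 0.0288 to 0.180 CPM over the muscle libraries. Against MEFs, 4 of 8 were higher and 4 lower in muscle FAPs, or 3 and 5 with library totals alone, and 4 were higher and 3 lower in lung FAPs, with Bmp2 at 158 against 4.93 CPM in muscle FAPs (edgeR adjusted p = 1.14e-09) and Wisp1 at −4.61 in lung FAPs (edgeR adjusted p = 2.25e-07). Of 22 proteoglycans of other families, 11 were higher in muscle than in lung FAPs and 6 lower, led by Prg4, the lubricating proteoglycan of joints (7.07, edgeR adjusted p = 1.19e-08), and Spock3 (−4.12, edgeR adjusted p = 0.000469), or, with library totals alone, 8 higher and 7 lower. Against MEFs the 22 split into 9 higher and 9 lower in muscle FAPs and 8 higher and 10 lower in lung FAPs, shares near those of all genes, with Prg4 at 8.47 in muscle FAPs (edgeR adjusted p = 9.23e-10) and Spock2 at 6.63 in lung FAPs (edgeR adjusted p = 6.79e-12).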

How the data were processed

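Bulk RNA sequencing of 13 mouse libraries was used. The deposited table holds raw read counts per gene, which the authors made with Bowtie2 2.1.0.0 on mm10 and HTSeq according to the submitters' processing notes. EdgeR is named there as well. Annotation and strand of the counting are not stated there. The table has 0 columns of other samples. TMM scaling was followed by tests in edgeR 4.0.16 (R 4.3.3), as a quasi-likelihood model of all 13 libraries with group as factor, for 15412 genes kept by filterByExpr, and p-values were adjusted by Benjamini-Hochberg over these, at a threshold of 0.05. The SE of a difference uses log2 CPM per library, at prior count 2. Ratios of reads within a library (0.5 added to each count) were compared by exact permutation tests. Depth of 28636183 to 44699463 reads makes 3 reads over a group equal to 0.0220, 0.0180 and 0.0166 CPM in muscle FAPs, lung FAPs and MEFs, for counting error only. Gene positions and exon lengths are GENCODE's.

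Replicate pairs within a group were compared and none was identical. The members and the lists of other genes were chosen with earlier results of these data known. The text names all members, the 2 genes and the member nearest to each by Pearson's r, and from each list of other genes the 2 passing genes with the largest change and at least 5 CPM between both kinds of FAP and 1 in each comparison with MEFs. The alternatives were DESeq2 1.42.0 (size factors, and the Wald test), upper-quartile scaling, library totals alone, other filters, limma-voom (limma 3.58.1), glmTreat against a 2-fold change, fewer groups in the fit, the replicate number as a block, and libraries left out.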

Additional observations from a re-analysis of the deposited data

Results flagged for a closer look

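Of 33 sets of values within a group that were searched for a library far from the others, 2 were flagged, both of Kera. The cutoff marks about 1 in 20 sets by chance where values are normally distributed. That rate does not apply to sets with most libraries at 0 reads, as both of these are. In lung FAPs, lung FAP 1 held 0.63 CPM of Kera, from 22 reads, while the other 4 libraries held 0 to 1 read. In MEFs, MEF 4 held 0.041 CPM, from 2 reads, and the other 3 held 0, so that set rests on 2 reads. With the other 3 at 0, any read in MEF 4 would have been flagged.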

How the results depend on the processing

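Between both kinds of FAP, 6 members passed; 2 passed glmTreat against a 2-fold change (Kera and Fmod), and 4 to 7 passed with single libraries left out. All genes passing fell from 7424 to 1934 under glmTreat in that comparison, from 11326 to 5892 for muscle FAPs against MEFs and from 11464 to 5944 for lung FAPs against MEFs. With library totals alone, Podn (−0.05) and Omd (−0.22) changed sign between both kinds of FAP, neither passing with either scale. For Kera in lung FAPs against MEFs, leaving out single libraries gave −0.39 to 5.34 on the log2 scale, and the sign turned without lung FAP 1; few reads limit that value. Against MEFs, the 10 and 9 members passing became 9 to 10 and 8 to 10 over all alternatives. The labels do not say whether replicate numbers pair the samples. Deviations of same-numbered libraries correlated at −0.048 to 0.061 over 11 pairs, and those of differently numbered ones at −0.112 to 0.087 over 45 pairs. Most of these pairs include a MEF library. Same-numbered muscle and lung FAPs 2 to 5 gave 0.017, 0.037, 0.061 and 0.050, against −0.074 to 0.077 for differently numbered ones. These values do not decide whether the numbers pair samples. With the replicate number as a block, 6, 10 and 10 members and 6805, 10817 and 11121 genes passed, and Kera passed in lung FAPs against MEFs (edgeR adjusted p = 0.028). Of the 18 tests of read ratios, the 13 that passed all fell short when any muscle FAP or MEF library was left out, or lung FAPs 2 and 3 together (adjusted p up to 0.0735), since fewer libraries cannot give a smaller p in part of the tests adjusted jointly; these values say nothing about stability. All 13 passed without any single lung FAP and with 2 in place of 0.5 reads added.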
